A study of Homo sapiens with 6 samples.

Results

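The 53 genes described here encode the machinery of mitosis: kinetochore and checkpoint proteins, the kinases and cyclins of mitotic entry, spindle motors, cytokinesis factors and proteins that shape the mitotic chromosome. They were chosen by name, as a fixed list of mitotic and kinetochore genes, and all 53 were found among the 18056 genes of the deposited table. The list was proposed with earlier results of these data known. Shares of it that changed are therefore descriptions and not independent support. All 53 passed the filter on low counts and are therefore among the 13842 genes tested. RNA was sequenced from human forebrain organoids, self-organising cultures grown from induced pluripotent stem cells by a dorsal forebrain protocol. All organoids came from 1 wild-type line, DYR0100, and were labelled as 1 batch. They received either vehicle (3 libraries) or 5 µM Aβ42, an amyloid peptide that readily aggregates, for 6 days (3 libraries). The comparison asks how levels of the mitotic transcripts differed between organoids with and without the peptide. The age of the organoids at treatment and the number of organoids behind a library are not given in the sources used here, and 1 line is a single genetic background.

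As background, the centromere carries a specialised histone on which the kinetochore is built, and the kinetochore holds each chromosome to spindle microtubules. The spindle checkpoint delays chromosome separation until every kinetochore is attached. Most of these genes are transcribed late in the cell cycle, so in the developing forebrain their transcripts come from dividing radial glia and intermediate progenitors and not from neurons. In bulk RNA, fewer dividing cells and less mitotic RNA per cell cannot be told apart.

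Library totals lay between 16465390 and 16742958 estimated counts, and scaling factors between 0.996 and 1.006, so depth differed little. Forebrain markers were present: the 14 radial glia markers summed to 8886 to 9425 TPM (a transcript level scaled for gene length and depth) and the 12 neuronal markers to 5038 to 5638 TPM per library. Of 5 pluripotency markers only POU5F1 had enough counts to test, the 5 together reaching at most 4.13 TPM, and none of 7 microglia markers was testable, with TREM2, TYROBP and C1QA listed at 0 in every library. The libraries numbered 2 stood apart. The 6 choroid plexus markers summed to 7584 TPM in vehicle library 2 and 6668 TPM in Aβ42 library 2, against 2842 to 3971 TPM in the other 4. Aβ42 library 2 also had the lowest sample quality weight (0.395, against 1 to 1.63 elsewhere). Results are therefore given as they stand, with the replicate number as a block (libraries with the same number compared with each other), and, where it matters, without Aβ42 library 2. The fit without a block was the planned one. The labels state no pairing, so the block rests on correlated deviations from the group means in these same data. By that measure numbers 1 and 3 are not told apart.

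All 53 genes had a lower fitted level with Aβ42, with a median log2 fold change of -0.46, whereas the median over all genes tested was 0.00 (6818 lower, 7024 higher). The values ran from -0.69 for KIF4A to -0.02 for BUB3 and ANLN, and 24 genes were at -0.5 or below. The 53 genes together made up 1559, 1850 and 1682 TPM in vehicle libraries 1 to 3 and 1162, 1449 and 1097 TPM in Aβ42 libraries 1 to 3. The means were 1697 ± 146 and 1236 ± 187 TPM (SD, n = 3 each), a change of -27.2%, and every Aβ42 library lay below every vehicle library.

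With edgeR's quasi-likelihood test and no block, an adjusted p-value under 0.05 was reached by 0 of the 53 genes and by none in the whole table (0%). The smallest adjusted p-value was 0.0684, shared by CENPE, NUSAP1, KIF4A, SMC2 and CCNA2. Before adjustment, 44 of 53 were under 0.05, all lower, where 11.5% of all genes tested were lower at that level. At an adjusted p-value under 0.10 there were 26 of 53, against 3.37% of all genes. In 38 of 53 the 3 Aβ42 values lay below all 3 vehicle values, which held for 13.4% of all genes. Here and below, genes that fell or rose are those lower or higher at an adjusted p-value under 0.05 in the fit named. With the replicate block, 41 of the 53 fell and none rose, against 7.05% of all genes that fell and 7.12% that rose. Without Aβ42 library 2 and without a block, 46 fell, among them all 41 called with the block, against 11.6% of all genes. That library was the highest Aβ42 library in 49 of the 53, so leaving it out widens the difference. The block also takes up the shared deviation of the libraries numbered 2, so these fits are not independent. Leaving out any other single library gave 0 of the 53. DESeq2's Wald test called 32, all lower, against 3.33% of the 12666 genes to which it gave an adjusted p-value. The number called thus differed with the tool and with the treatment of the libraries numbered 2, while the direction of the median did not change in any of 15 alternatives.

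**Figure D1:**
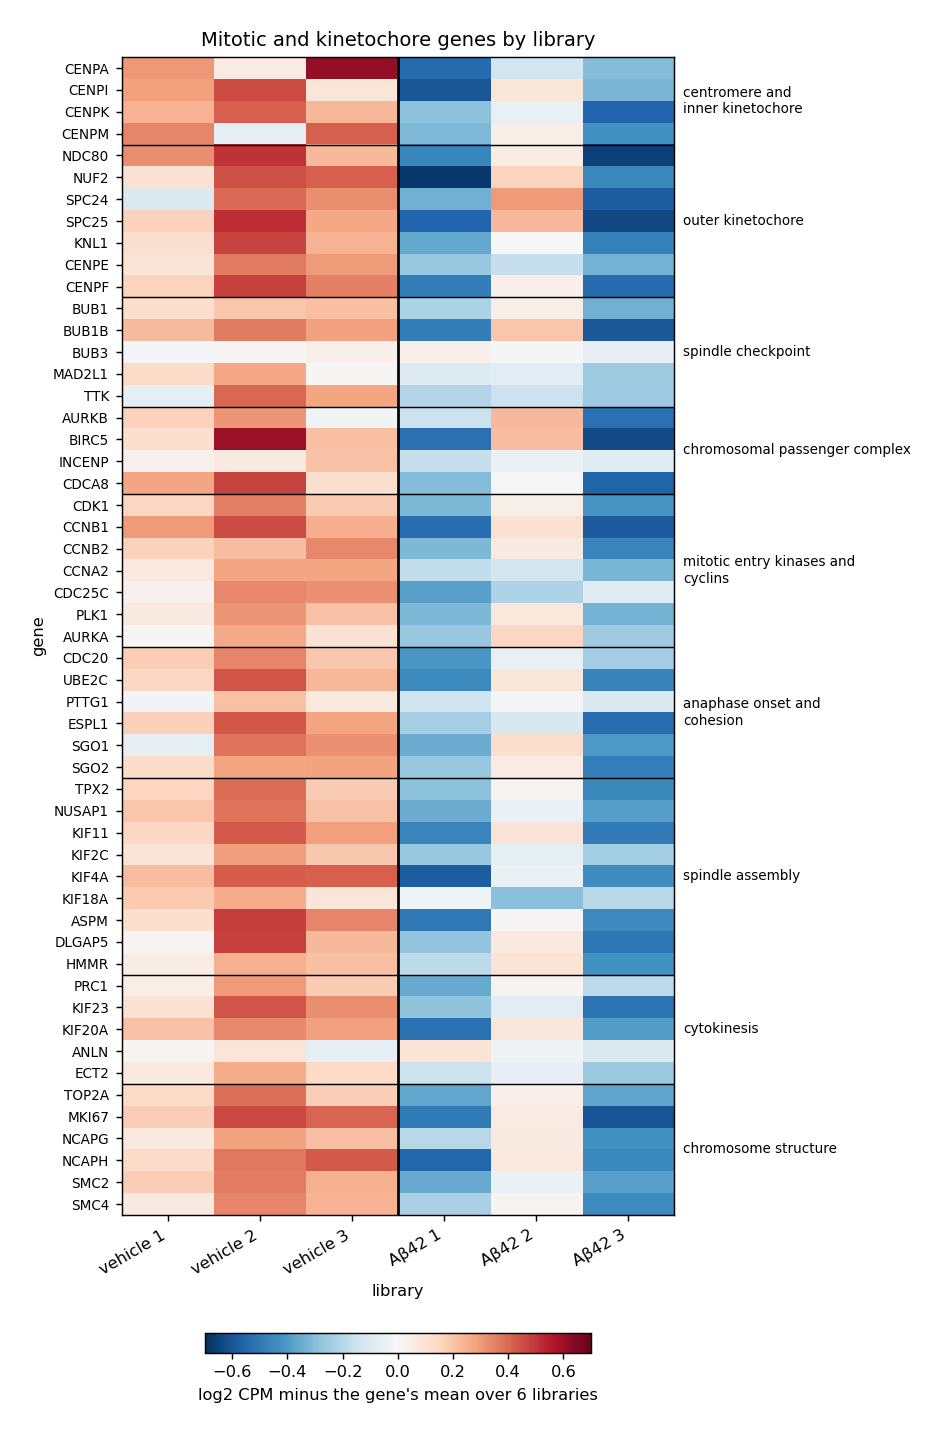
Heat map of the 53 genes (rows, grouped by role) in the 6 libraries (columns), coloured by log2 CPM (counts scaled for library size) minus the gene's mean over the 6 libraries. Vehicle library 2 was the highest of all 6 in 44 genes and Aβ42 library 3 the lowest in 38, while BUB3 and ANLN are nearly colourless.

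The genes moved from library to library largely together. Vehicle library 2 was the highest vehicle library in 45 of the 53 genes, and vehicle library 1 the lowest in 42. Among the Aβ42 libraries, number 2 was the highest in 49 of 53, whereas it was the highest in 38.8% of all genes. The mean deviation of the 53 genes, on the log2 CPM scale, was 0.12, 0.34 and 0.23 in vehicle libraries 1 to 3 and -0.33, 0.02 and -0.39 in Aβ42 libraries 1 to 3. Aβ42 library 3 lay below all vehicle libraries in 53 genes, Aβ42 library 1 in 51 and Aβ42 library 2 in 39, against 36.0%, 36.4% and 26.4% of all genes in the same order. Between libraries of the same number, 51, 52 and 53 of the 53 genes were lower with Aβ42 in pairs 1, 2 and 3. The median log2 differences of those pairs were -0.44, -0.34 and -0.66, against 0.00, 0.00 and 0.01 for all genes. In 50 genes the Aβ42 library was the lower in all 3 pairs, and the exceptions, named after their values were seen, were CENPM, BUB3 and ANLN.

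Levels are compared between genes in TPM, as vehicle means. PTTG1, which encodes securin, the inhibitor of separase, was the most abundant at 143 ± 12.9 TPM (SD, n = 3). TOP2A (122 ± 13.3 TPM) came next and overlapped with PTTG1 over the libraries, and BUB3 (107 ± 2.18 TPM) lay below both. NUSAP1 (94.5 ± 7.96 TPM), UBE2C (88.2 ± 10.4 TPM) and CDK1 (82.1 ± 7.03 TPM) followed, and the libraries of these 3 overlapped. ESPL1, the separase that PTTG1 holds in check, was the least abundant at 4.68 ± 0.486 TPM, close to CDC25C at 5.54 ± 0.638 TPM. At or above the median level of 21.9 TPM the median log2 fold change was -0.47 (27 genes), and below it -0.46 (26 genes). Whether the fold change goes with the level was not tested. The lowest estimated count of any member in a library was 30 (CENPM), for which counting error alone is 18.3%, and for TOP2A it was at most 1.85%.

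Centromere and inner kinetochore genes are given first, as CPM after scaling, in the order of libraries 1, 2 and 3. CENPK, a subunit of the constitutive centromere complex, had 11.8, 13.3 and 11.7 CPM with vehicle and 8.17, 9.62 and 6.78 CPM with Aβ42. The groups did not overlap, the log2 fold change was -0.58 ± 0.14 (SE), and the adjusted p-value was 0.0734. CENPA, the histone variant that marks the centromere, had 4.03, 3.40 and 5.00 CPM with vehicle and 2.25, 2.97 and 2.64 CPM with Aβ42, again without overlap (-0.66 ± 0.21). CENPI, which helps recruit new CENPA, overlapped between groups by its Aβ42 library 2 (11.3 CPM, level with vehicle library 3 at 11.3 CPM). CENPK, CENPA and CENPI fell with the block, while the fourth gene, CENPM, did not pass there (adjusted p-value 0.195, 0.0509 to 0.537 over its 15 alternatives). The summed level of the 4 genes was 50.8 ± 1.01 TPM with vehicle and 32.8 ± 5.36 TPM with Aβ42.

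The outer kinetochore binds the microtubule through the rod-shaped complex of NDC80, NUF2, SPC24 and SPC25, which KNL1 and its partners anchor. Of the 7 outer kinetochore genes 6 fell with the block, and the median log2 fold change was -0.59, with a range of -0.68 to -0.38. CENPE, a kinesin that carries chromosomes toward the spindle equator, had 33.9, 41.0 and 39.2 CPM with vehicle and 26.5, 28.5 and 25.3 CPM with Aβ42. Aβ42 library 2 did not stand apart in this gene, and the log2 fold change was -0.51 ± 0.08, with an adjusted p-value of 0.0684 and of 0.000503 with the block (0.000503 to 0.296 over 15 alternatives). NDC80 had 18.6, 21.1 and 17.4 CPM with vehicle and 10.8, 15.4 and 9.42 CPM with Aβ42. Its log2 fold change of -0.68 ± 0.17 was the lowest of this group, and the libraries did not overlap. The other subunits of the same complex overlapped between groups through Aβ42 library 2: NUF2 was at -0.61 ± 0.20, SPC25 at -0.59 ± 0.22 and SPC24 at -0.38 ± 0.23. SPC24 did not pass with the block. Per length, SPC24 was also the least abundant subunit, at 9.71 TPM with vehicle against 25.6, 26.7 and 27.6 TPM for NDC80, NUF2 and SPC25. CENPF, a large protein of the outer corona, was at -0.64 ± 0.18 and KNL1, the scaffold for checkpoint proteins, at -0.55 ± 0.13, both without overlap.

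Among the 5 spindle checkpoint genes, 4 fell with the block and BUB3 did not. TTK, the kinase that starts checkpoint signalling at unattached kinetochores, had 16.7, 23.0 and 21.1 CPM with vehicle and 15.1, 15.7 and 14.6 CPM with Aβ42, without overlap (-0.42 ± 0.12, adjusted p-value 0.0856). BUB1B, part of the inhibitor that holds back the anaphase-promoting complex, was at 27.3 CPM in Aβ42 library 2, just below the lowest vehicle value of 27.9 CPM, and at 17.1 and 15.9 CPM in Aβ42 libraries 1 and 3. Its log2 fold change was -0.54 ± 0.19, and -0.83 without Aβ42 library 2. BUB1, its related kinase, was at -0.34 ± 0.09 and MAD2L1, the protein that captures the complex's activator, at -0.28 ± 0.09. BUB3, the adaptor that binds BUB1 and BUB1B to KNL1, had 102, 103 and 105 CPM with vehicle and 105, 102 and 98.4 CPM with Aβ42. The libraries were interleaved, and the log2 fold change was -0.02 ± 0.05 with an adjusted p-value of 0.798. Its sign was positive on both TPM scales and without Aβ42 library 3, so no direction is given. Per length, BUB3 was also far above its partners, at 107 TPM against 22.2 TPM for BUB1 and 21.2 TPM for BUB1B with vehicle.

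The chromosomal passenger complex corrects faulty attachments and later acts in cytokinesis. CDCA8, its borealin subunit, had 10.2, 11.7 and 9.09 CPM with vehicle and 6.83, 8.43 and 5.70 CPM with Aβ42, without overlap (-0.56 ± 0.16, adjusted p-value 0.0888), and fell with the block. BIRC5, the survivin subunit, also fell with the block and was at -0.59 ± 0.25, its Aβ42 library 2 (21.7 CPM) lying above vehicle libraries 1 and 3 (20.3 and 21.6 CPM). AURKB, the kinase of the complex, had 6.37, 7.05 and 5.61 CPM with vehicle and 5.12, 6.65 and 3.96 CPM with Aβ42. Its groups overlapped, and -0.27 ± 0.19 did not pass in any of its 15 alternatives. INCENP, the scaffold subunit, was at -0.20 ± 0.07 and did not pass with the block, although its groups did not overlap. The complex therefore contains the large and the small values side by side, and no difference between its subunits was tested.

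Mitotic entry depends on CDK1 bound to cyclins, with CDC25C removing its inhibitory phosphates and PLK1 and AURKA promoting the switch. CDK1 had 49.4, 56.7 and 50.5 CPM with vehicle and 35.8, 45.7 and 33.4 CPM with Aβ42. Without overlap between groups, its log2 fold change was -0.45 ± 0.11, with an adjusted p-value of 0.0786 and of 0.000693 with the block (0.000406 to 0.296 over 15 alternatives). CCNA2, cyclin A, had 30.3, 35.0 and 35.0 CPM with vehicle and 25.7, 26.4 and 23.2 CPM with Aβ42, without overlap (-0.41 ± 0.08, adjusted p-value 0.0684). CCNB1, the main mitotic cyclin, had 26.2, 29.2 and 25.4 CPM with vehicle and 14.7, 22.9 and 14.2 CPM with Aβ42. Aβ42 library 2 lay much nearer to vehicle than the other Aβ42 libraries, and the log2 fold change moved from -0.64 ± 0.17 to -0.90 without it. CCNB2, the related cyclin, was at -0.46 ± 0.13, and PLK1 at -0.38 ± 0.12. CDK1, CCNA2, CCNB1, CCNB2 and PLK1 fell with the block, whereas CDC25C (-0.46 ± 0.19) and AURKA (-0.24 ± 0.13) did not pass there.

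At anaphase the ubiquitin ligase APC/C, activated by CDC20 and fed by UBE2C, destroys securin and frees separase, and the shugoshins SGO1 and SGO2 guard centromeric cohesion until then. ESPL1, the separase, had 11.1, 13.4 and 12 CPM with vehicle and 8.41, 9.15 and 6.84 CPM with Aβ42, without overlap (-0.58 ± 0.13, adjusted p-value 0.0734). PTTG1, its inhibitor, had 22.1, 25.8 and 23.5 CPM with vehicle and 20.3, 22.2 and 20.9 CPM with Aβ42. The groups overlapped by a narrow margin, and -0.17 ± 0.08 did not pass in any of 15 alternatives. PTTG1 has near-identical gene copies, so part of its reads may come from them. CDC20 (-0.46 ± 0.11), UBE2C (-0.53 ± 0.15) and SGO2 (-0.44 ± 0.12) were lower without overlap and fell with the block, as ESPL1 did. SGO1 (-0.41 ± 0.18) overlapped between groups and did not pass.

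Spindle assembly genes numbered 9, of which 7 fell with the block. NUSAP1, which bundles microtubules at chromosomes, had 71.3, 81.1 and 72.1 CPM with vehicle and 49.1, 60.5 and 47.8 CPM with Aβ42. The groups did not overlap, and the log2 fold change was -0.51 ± 0.09, with an adjusted p-value of 0.0684 and of 0.000104 with the block (0.000104 to 0.296 over 15 alternatives). KIF4A, a motor on chromosome arms, had 25.5, 29.4 and 29.3 CPM with vehicle and 14.7, 21.2 and 16.2 CPM with Aβ42. This was the lowest log2 fold change of all 53 genes, -0.69 ± 0.13, or 38.2% lower. ASPM, a spindle pole protein known for its role in brain size, had 53.3, 69.1 and 62.5 CPM with vehicle and 34.9, 49.7 and 36.2 CPM with Aβ42 (-0.61 ± 0.15). TPX2, which activates AURKA on the spindle, was at -0.47 ± 0.12, KIF11, the motor that separates the poles, at -0.55 ± 0.16, and KIF2C, a microtubule depolymerase, at -0.38 ± 0.09. All 6 of these genes were without overlap. DLGAP5 (-0.47 ± 0.16) overlapped between groups and fell with the block. KIF18A and HMMR, at -0.35 ± 0.12 and -0.33 ± 0.16, did not pass there.

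Of the 5 cytokinesis genes 4 fell with the block, and the median over all 5 was -0.34. KIF23, a motor of the central spindle, had 22.8, 28.7 and 26.5 CPM with vehicle and 17.4, 20.1 and 14.8 CPM with Aβ42, without overlap (-0.58 ± 0.12, adjusted p-value 0.0697). KIF20A (-0.53 ± 0.15), PRC1, which crosslinks the central spindle (-0.34 ± 0.10), and ECT2, the activator of the contractile ring's switch RhoA (-0.31 ± 0.07), were likewise lower without overlap, and these were the 4 that fell. ANLN, the ring scaffold anillin, had 45.9, 48.2 and 43.8 CPM with vehicle and 48.6, 44.5 and 42.5 CPM with Aβ42. Its libraries were interleaved, with Aβ42 library 1 the highest of all 6, and the log2 fold change was -0.02 ± 0.07 (adjusted p-value 0.851). Its sign turned positive when vehicle library 2, Aβ42 library 3 or both libraries numbered 2 were left out, so no direction is given for ANLN.

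Chromosome structure genes were lower without overlap in 6 of 6 and all fell with the block. TOP2A, the topoisomerase that untangles sister chromatids, had 253, 301 and 259 CPM with vehicle and 179, 236 and 178 CPM with Aβ42. All Aβ42 libraries were lower, and the log2 fold change of -0.46 ± 0.12 had an adjusted p-value of 0.108, and of 7.86e-05 with the block (7.86e-05 to 0.331 over 15 alternatives). MKI67, the surface protein of mitotic chromosomes used as the Ki-67 proliferation marker, had 151, 185 and 178 CPM with vehicle and 95.4, 139.6 and 88.2 CPM with Aβ42. Here Aβ42 library 2 was close to the lowest vehicle library, and the log2 fold change was -0.67 ± 0.19, or -0.90 without that library. SMC2, the core ATPase of condensin, had 51.2, 58.2 and 53.9 CPM with vehicle and 35.5, 43.9 and 34.8 CPM with Aβ42 (-0.51 ± 0.09, adjusted p-value 0.0684). Its partner SMC4 was at -0.42 ± 0.12, and the condensin I subunits NCAPG and NCAPH were at -0.36 ± 0.11 and -0.60 ± 0.16.

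**Figure D2:**
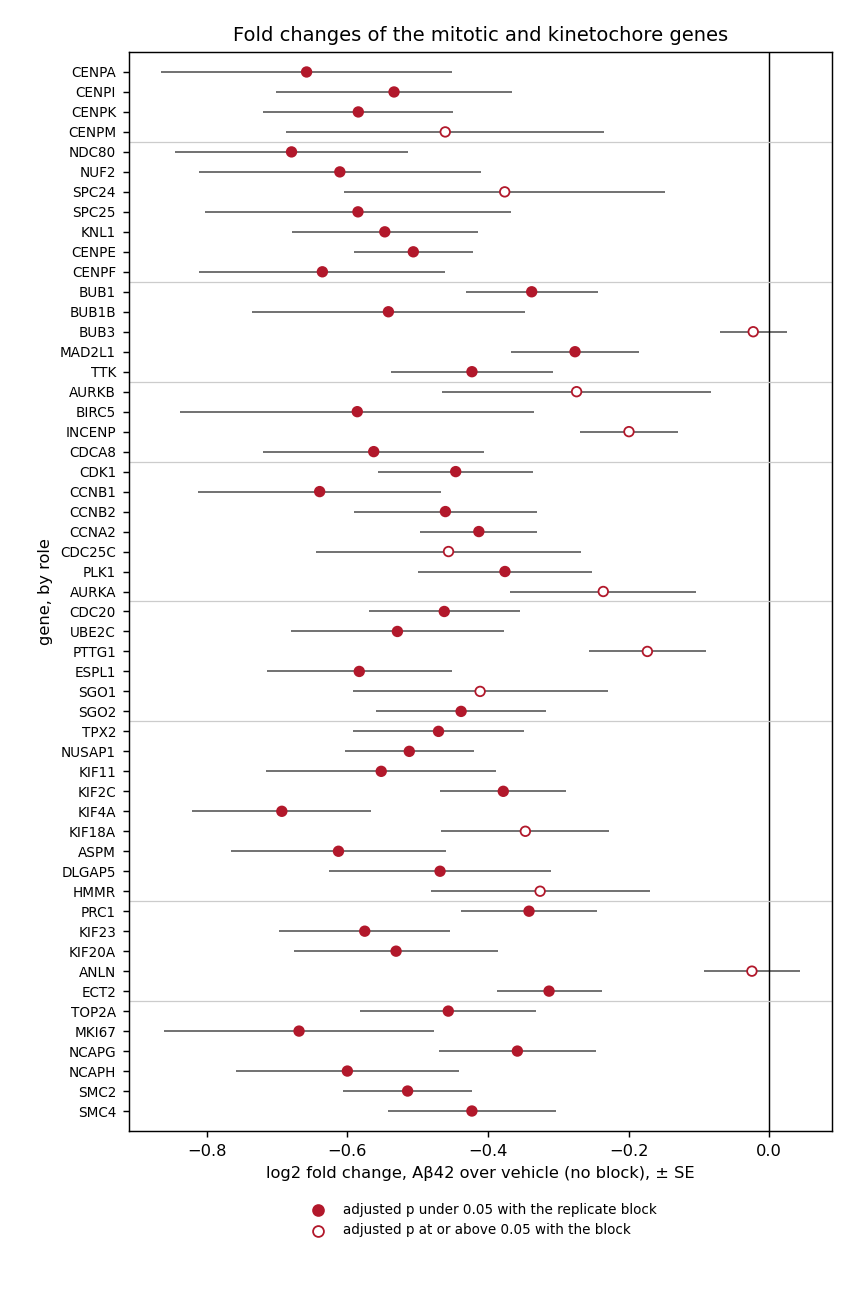
Log2 fold change of Aβ42 over vehicle without a block (points, ± SE, 3 libraries a group) for the 53 genes by role; filled points passed an adjusted p-value of 0.05 with the replicate block. All points lie left of 0, from -0.69 for KIF4A to -0.02 for BUB3 and ANLN, and 41 are filled. The pairing behind the block was taken from the data, and without the block 0 passed.

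The 12 genes that did not pass with the block were CENPM, SPC24, BUB3, AURKB, INCENP, CDC25C, AURKA, PTTG1, SGO1, KIF18A, HMMR and ANLN. Of the 53 genes, 47 had whole estimated counts in every library. The others were SPC24, SPC25, CCNA2, SGO1, ECT2 and NCAPG.

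Promoters of mitotic genes are known for the cell cycle homology region, through which the DREAM repressor complex and the activators MYBL2 and FOXM1 act. They are also known for CCAAT boxes bound by NF-Y. The region was searched only as the exact letters TTTGAA and the box as CCAAT, so other forms were not counted. Both words were searched on both strands, where matches of one may share end letters with the other, in windows from 250 bases before to 50 bases after each start annotated by RefSeq (GRCh38.p14). Of the 53 genes 45 had a promoter in that table. TTTGAA was found in 31 of 45 (68.9%), in 39.1% of 110 other mitotic genes, in 2 of 42 S-phase genes (4.76%) and in 18.2% of all 27305 genes of the table. CCAAT was found in 35 of 45 (77.8%), against 54.5% of other mitotic genes, 57.1% of S-phase genes and 39.7% of all genes. Both words were found in 24 (53.3%), against 20.9% of other mitotic genes and 7.26% of all genes. Over the 11307 tested genes with a promoter, the shares were 14.3% for TTTGAA, 43.2% for CCAAT and 5.89% for both. The following stretches run from 130 bases before the start to 20 bases from it on, and matches are in capitals on either strand. CCNB2 and KIF4A hold both words, ANLN holds TTTGAA without the lower level, and CENPE has the lower level without either word.

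These 4 stretches are examples picked after their values were seen, and whether the words go with the expression values was not tested.  
CCNB2 promoter (chr15:59105016-59105165, strand plus): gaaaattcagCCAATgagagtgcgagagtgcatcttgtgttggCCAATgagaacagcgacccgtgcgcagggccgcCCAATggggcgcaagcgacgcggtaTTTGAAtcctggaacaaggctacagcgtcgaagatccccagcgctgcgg  
KIF4A promoter (chrX:70289974-70290123, strand plus): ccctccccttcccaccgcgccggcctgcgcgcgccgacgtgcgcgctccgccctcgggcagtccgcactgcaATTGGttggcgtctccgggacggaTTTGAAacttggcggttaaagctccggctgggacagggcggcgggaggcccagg  
ANLN promoter (chr7:36389732-36389881, strand plus): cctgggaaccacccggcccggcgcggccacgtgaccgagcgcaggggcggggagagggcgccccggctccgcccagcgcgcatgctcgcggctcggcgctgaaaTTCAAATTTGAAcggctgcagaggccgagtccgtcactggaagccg  
CENPE promoter (chr4:103198324-103198473, strand minus): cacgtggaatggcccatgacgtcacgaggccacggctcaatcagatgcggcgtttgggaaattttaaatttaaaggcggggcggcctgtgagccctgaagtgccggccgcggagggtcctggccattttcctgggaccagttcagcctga  

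In CCNB2 the TTTGAA begins 29 bases before the start, behind CCAAT boxes at 120, 87 and 54 bases. In KIF4A it begins 34 bases before the start, with a CCAAT box on the other strand at 58 bases. ANLN has adjacent matches, 1 on each strand, at 26 and 20 bases before the start. Over all windows of the 45 genes, 31 of 46 TTTGAA matches began within 50 bases before or after the start, and 51 of 83 CCAAT matches began 110 to 40 bases before it. Genes with several annotated starts have overlapping windows, so some matches are counted more than once. Among genes of the list, the median log2 fold change was -0.47 for the 31 with TTTGAA and -0.43 for the 14 without it. Over all 1612 tested genes with TTTGAA it was -0.03, and over the 9695 without it 0.00. The difference between these medians was not tested, and whether any factor binds there was not measured.

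**Figure D3:**
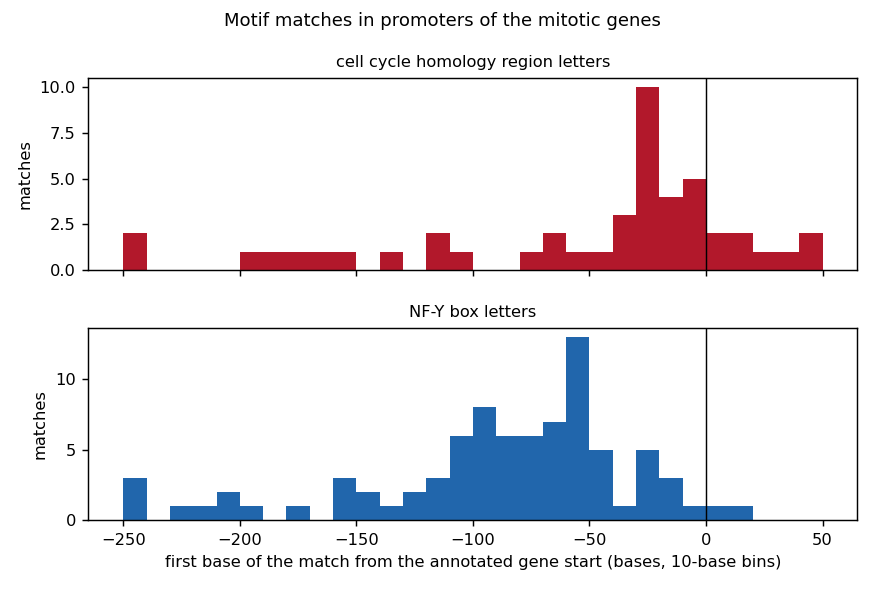
Number of matches (10-base bins) by the distance of their first base from the annotated gene start, in promoters of 45 of the 53 genes. The top shows TTTGAA, letters of the cell cycle homology region, and the bottom CCAAT, those of the NF-Y box. The first crowds just before the start, with 31 of 46 matches within 50 bases of it, and the second lies further upstream, with 51 of 83 between 110 and 40 bases before it.

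Other genes of cell division, 128 in 10 lists, had a median log2 fold change of -0.12, with 96 lower and 32 higher. None passed without a block (47 lower and 7 higher at an unadjusted p-value under 0.05), and with the block 36 fell and 4 rose. The 25 further spindle and cytokinesis genes had a median of -0.45, near that of the 53, and 20 of 25 fell with the block. PLK4, the kinase of centriole duplication, had 16.8, 20.5 and 18.5 CPM with vehicle and 11.6, 14.3 and 12.1 CPM with Aβ42 (-0.55 ± 0.11). The 4 centromere loading factors had a median of -0.41.

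Counts with the block in the remaining lists are read against the 7.05% of all genes that fell and 7.12% that rose, and 1 gene of 17 is close to that background. The 17 APC/C genes had a median of -0.02, and 1 fell and 1 rose with the block: FBXO5, the cell cycle-regulated inhibitor of the complex (-0.29 ± 0.09), and the subunit ANAPC16 (0.23 ± 0.07). The 12 cohesin genes had a median of -0.11, and 3 fell. Of these, CDCA5, or sororin, was at -0.57 ± 0.10 and ESCO2, the acetyltransferase of cohesin, at -0.78 ± 0.17. The 12 augmin and gamma-tubulin genes had a median of -0.07 (0 fell and 1 rose), the 4 further condensin subunits -0.04 (1 fell), and the 10 corona and checkpoint genes -0.08 (0 fell). The 17 other genes of the inner kinetochore and the MIS12 complex had a median of -0.13 (5 fell), CENPU being at -0.44 ± 0.12. The 9 genes that control mitotic entry had a median of -0.12 (1 fell and 1 rose). No difference between lists was tested.

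Among 18 regulators of mitotic transcription, 4 fell and 1 rose with the block, and the median was -0.11. MYBL2, the activator B-MYB, had 19.2, 21.6 and 18.4 CPM with vehicle and 8.41, 13.8 and 9.48 CPM with Aβ42. No library overlapped, and the log2 fold change was -0.90 ± 0.16 (adjusted p-value 0.0684). FOXM1, the later-acting activator, had 24.4, 25.8 and 25.6 CPM with vehicle and 14.4, 21.7 and 13.9 CPM with Aβ42, without overlap (-0.60 ± 0.15, adjusted p-value 0.083). CDKN1A, the p21 inhibitor of cyclin-dependent kinases, was the gene that rose with the block, its values of 191, 162 and 204 CPM all lying above the 128, 133 and 131 CPM of vehicle (0.50 ± 0.08, adjusted p-value 0.0684). In all 3 regulators Aβ42 library 2 was the Aβ42 library nearest to vehicle, as it was for most of the 53 genes.

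**Figure D4:**
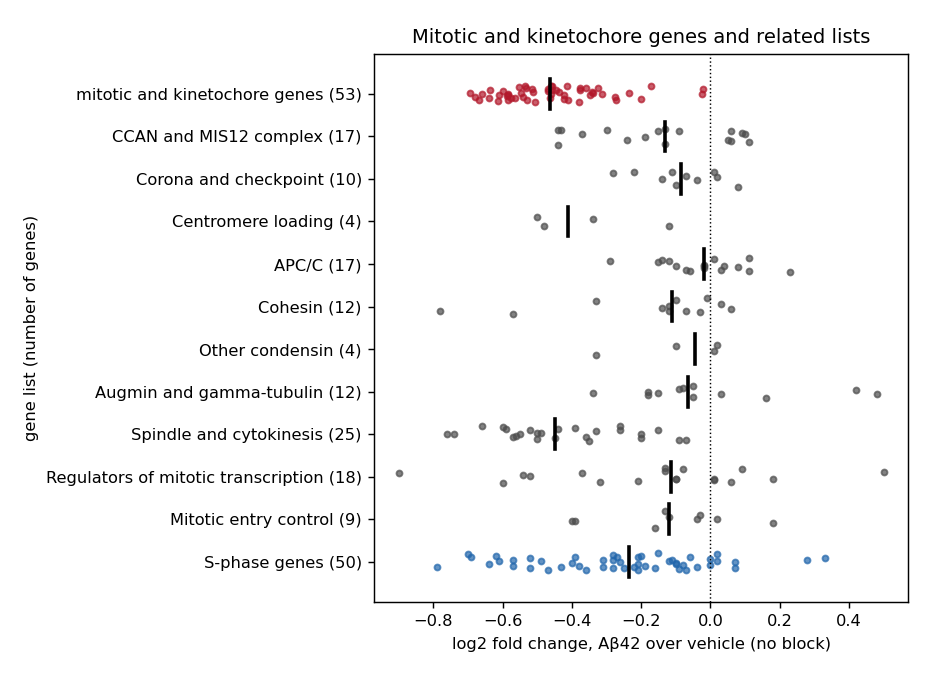
Log2 fold change of Aβ42 over vehicle without a block for each gene (points) of the 53 (red), of 10 other lists of cell division genes (grey) and of S-phase genes (blue), with list medians as black bars; CCAN is the constitutive centromere complex. Medians were -0.46 for the 53, -0.45 for further spindle and cytokinesis genes, -0.23 for S-phase genes and -0.02 for APC/C.

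S-phase genes, which copy DNA and supply its building blocks, were set beside the mitotic genes. Of 50 there were 43 lower and 7 higher without a block, with a median log2 fold change of -0.23. None passed without a block. At an unadjusted p-value under 0.05, 21 were lower and 2 higher, against 1586 lower and 1716 higher of all 13842 genes tested. With the block 19 fell, against 7.05% of all genes. In 11 of 50 all Aβ42 values lay below all vehicle values, compared with 38 of the 53 mitotic genes and 13.4% of all genes. Their summed level was 1503 ± 55.1 TPM with vehicle and 1278 ± 132 TPM with Aβ42, a change of -15.0%, against -27.2% for the mitotic genes. In pair 2 the median log2 difference was -0.09 for S-phase genes and -0.34 for the mitotic genes. In pairs 1 and 3 it was -0.29 and -0.33 for S-phase genes and -0.44 and -0.66 for mitotic genes. UHRF1, which maintains DNA methylation behind the fork, had the smallest p-value of the list, with 26.4, 28.8 and 26.5 CPM with vehicle and 16.6, 23.9 and 14.3 CPM with Aβ42 (-0.57 ± 0.17, adjusted p-value 0.107). Whether the lists differ was not tested.

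Markers of dividing and non-dividing cell types moved as follows, and their part in the mitotic result was not tested. Their counts with the block are read against the 7.05% of all genes that fell and 7.12% that rose. The 8 intermediate progenitor markers summed to 378 to 419 TPM with vehicle and 262 to 314 TPM with Aβ42, 7 of 8 were lower, and 6 fell with the block. EOMES, the defining factor of these cells, had 102, 124 and 99.4 CPM with vehicle and 58.9, 75.7 and 49.1 CPM with Aβ42 (-0.83 ± 0.17). The 14 radial glia markers showed a median log2 fold change of 0.05, 6 of 14 were lower, and their sums overlapped (8886 to 9293 TPM with vehicle, 9113 to 9425 TPM with Aβ42). With the block 3 fell, among them HOPX (-0.45 ± 0.13). In 3 of 14, FABP7, HES1 and FAM107A, all Aβ42 values lay above all vehicle values, and in 1 of 14 all lay below. Over the 13842 genes tested, 1879 lay above and 1853 below. The 12 neuronal markers had a median of -0.11, with sums of 5390 to 5638 TPM with vehicle and 5038 to 5271 TPM with Aβ42, and 4 fell with the block. The 6 astrocyte markers, 5 of 6 lower, summed to 69.5, 83.0 and 55.6 TPM with vehicle and 42.6, 63.6 and 41.2 TPM with Aβ42, a change of -29.2% that was lower in every pair although the groups overlapped. With the block 2 fell, S100B (-1.25 ± 0.35 without it) and GJA1 (-0.84 ± 0.49). ALDH1L1 was the 1 that was higher (0.33), without overlap. It had 116, 118 and 138 estimated counts with vehicle and 155, 159 and 157 with Aβ42. The 6 choroid plexus markers, 5 of 6 lower, overlapped between groups (3352 to 7584 and 2842 to 6668 TPM), and CLIC6 and HTR2C fell with the block. Of 6 mesenchymal markers 4 were tested, 2 of them lower, and the 6 summed to 19.1, 32.5 and 17.6 TPM with vehicle and 13.9, 18.5 and 14.6 TPM with Aβ42, a change of -31.9%, lower in every pair. DCN, a matrix proteoglycan, was the 1 that fell with the block, with 27.2, 58.6 and 23.4 CPM with vehicle and 12.1, 24.2 and 12.1 CPM with Aβ42 (-1.17 ± 0.52). PDGFRB, which had the smallest p-value of this list, was higher. It had 291, 284 and 283 estimated counts with vehicle and 311, 319 and 348 with Aβ42. The 4 endothelial markers stayed at or below 6.94 TPM. S100B, GJA1, ALDH1L1, CLIC6, HTR2C, DCN, PDGFRB, FABP7, HES1 and FAM107A were named after their values were seen.

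**Figure D5:**
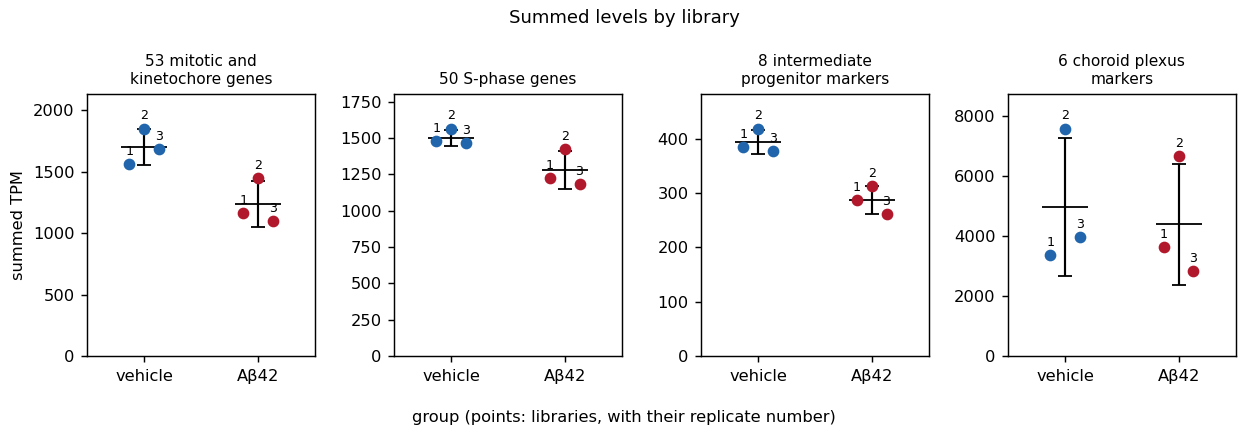
Summed TPM in each library (points with replicate numbers; bars, mean ± SD of 3 libraries) for the 53 genes, the S-phase genes, intermediate progenitor markers and choroid plexus markers, each on its own axis from 0. The 53 genes ran from 1559 to 1850 TPM with vehicle and from 1097 to 1449 TPM with Aβ42, and the choroid plexus sum was highest in the libraries numbered 2 of both groups.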

How the data were processed

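Polyadenylated RNA was sequenced with a stranded kit and PCR amplification, per the labels' protocols, and no molecular identifiers are mentioned. The authors deposited 1 table with estimated counts and TPM values per gene and library. Its header calls the former read counts, but 12.5% to 13.1% of them in a library were not whole numbers, so they were handled like expected counts and rounded. Counting error does not cover amplification. STAR 2.7.11b, featureCounts 2.0.6 and GRCh38 are listed per the submitters' processing notes; the annotation and the strand setting are not given in the sources used here, so reads of overlapping or near-identical genes may have been divided. The labels call the 3 libraries of a group biological replicates.

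Genes were filtered with filterByExpr, scaled by TMM and compared with edgeR 4.0.16 (quasi-likelihood, robust, no block, R 4.3.3), with Benjamini-Hochberg adjustment over all 13842 genes. SE is the log2 fold change over the square root of F. The code was tested on simulated data. Alternatives are RLE scaling, no filter, DESeq2 1.42.0, limma 3.58.1 (voom, with or without sample quality weights, or log2 TPM plus 1 or 0.1), the block, and left-out libraries. Chi-square values per gene between libraries were 3.16 to 21.1, so none was a duplicate. The smallest was between vehicle 1 and Aβ42 2. By this measure Aβ42 2 was nearer to vehicle 1 and 3 (3.16 and 4.58) than to vehicle 2 (7.7). Against Aβ42 1 and 3 it was at 9.4 and 8.48.

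Deviations from group means, in the 12186 genes averaging 50 counts or more, correlated at 0.181, 0.388 and 0.129 between libraries numbered 1, 2 and 3. All exceed 0.1, so the numbers were taken as pairs, from the data alone. Vehicle 1 with Aβ42 3 and vehicle 3 with Aβ42 1 gave 0.154 and 0.177, so numbers 1 and 3 are not told apart.

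The members and lists were chosen with earlier results of these data known. Values per library are given for the member of each role with the smallest p-value, those of highest and lowest TPM, and TOP2A, MKI67, CDK1, CCNB1, AURKB, CENPE and NUSAP1. MYBL2, FOXM1, CDKN1A and the smallest p-values of other lists were also named. BUB3, ANLN, CENPA, NDC80, KIF4A, ASPM, EOMES and single-library values of CENPI, BUB1B and BIRC5 were added after their values were seen, as were the promoters shown.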

Additional observations from a re-analysis of the deposited data

How the results depend on the processing

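Of 13842 genes none passed without a block in edgeR, nor under RLE scaling, limma-voom or either TPM scale. Genes past the threshold numbered 360 without a filter on low counts, 805 with DESeq2, 2543 with quality weights, 1962 with the replicate block, 962 at an adjusted p-value under 0.10, 2316 without both libraries numbered 2 (chosen after seeing the data) and 0 to 3224 when each library was left out in turn, with calls only without Aβ42 replicate 2. In the same order, the mitotic and kinetochore genes gave 11, 32, 43, 41, 26, 39 and 0 to 46, all lower. The other cell division genes gave 8, 20, 48, 40, 22, 42 and 0 to 55. S-phase genes gave 4 with DESeq2, 25 with quality weights, 19 with the replicate block, 25 without both libraries numbered 2 and 0 to 26 over the libraries left out. The cause was not tested.

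The median log2 fold change of the 53 genes ran from -0.61 without Aβ42 replicate 2 to -0.40 without Aβ42 replicate 3. From 37 to 51 were at an unadjusted p-value under 0.05. The share of all genes is given only for the planned fit (11.5% lower), so this range is a description. BUB3 changed sign on the log2(TPM + 1) scale (0.0114), the log2(TPM + 0.1) scale (0.0115) and when libraries were left out in turn (-0.046 to 0.0012, positive without Aβ42 replicate 3). ANLN did so over the left-out libraries (-0.079 to 0.018, positive without vehicle replicate 2 at 0.0099 and Aβ42 replicate 3) and without both libraries numbered 2 (0.020). Every other member was lower in all 15 alternatives. Counting error alone reached 18.3% of a library's value in CENPM, the gene with the lowest counts.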
